A study of Mus musculus with 36 samples.

Results

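The cristae of mitochondria are folds of the inner membrane that carry the respiratory chain, and 8 genes that shape or stabilise this membrane were followed through single mouse oocytes. The genes were chosen by name, as subunits of the MICOS complex and members of the prohibitin family (Immt, Chchd3, Chchd6, Apoo, Apool, Phb, Phb2 and Stoml2), and all 8 were found among the 21968 genes of the counts table. The table holds 36 libraries, each from 1 oocyte at the germinal vesicle stage, the stage of arrest in the first meiotic prophase. The labels give 18 oocytes of 4 mice (a to d) as Drp1_KO and 18 oocytes of 5 mice (1 to 5) as Drp1_WT. Dnm1l encodes Drp1, a dynamin-related GTPase by which mitochondria divide, and the study asked what its loss in the oocyte does. The deleted part of the gene, the driver of the deletion, the strain and the age of the mice were not given in the sources used here. With 3 to 5 oocytes from each mouse, tests treated mice as the replicates (n = 4 and n = 5).

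The MICOS complex sits at the narrow junctions where cristae meet the boundary membrane. Immt (mitofilin) is its scaffold, Chchd3 and Chchd6 are related proteins with a CHCH domain that bind Immt, and Apoo and Apool form a second arm of the complex linked to cardiolipin. Phb and Phb2, the prohibitins, assemble into rings in the inner membrane that hold proteases and scaffold lipids, and Stoml2, a stomatin-like protein, binds prohibitins and cardiolipin. Mitochondria of mouse oocytes are round and have few cristae.

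Total counts ran from 3178509 to 7104219 in oocytes labelled Drp1_KO and from 4699541 to 7406895 in those labelled Drp1_WT. The summed level of 15 oocyte markers was at least 28494 CPM (counts scaled to a common library total) in 17 Drp1_KO libraries and at least 28929 CPM in all Drp1_WT libraries. Tube 10 of mouse b, a Drp1_KO library, stood apart, with 15375 CPM of oocyte markers, 11350 genes detected against 13199 to 14138 in the other Drp1_KO libraries, and 5.61% of counts from the mitochondrial genome against 0.169% to 0.599%. It also held 558 CPM of 18 summed markers of other ovarian cells (stromal, endothelial, epithelial and immune). The sum was 31 to 60.9 CPM in the other Drp1_KO libraries and 31.3 to 75.5 CPM in Drp1_WT libraries. Cdh5 and Hbb-bt of this list were at 0 in all libraries. Of the 6 markers tested by mouse, mouse b was the highest Drp1_KO mouse for Cd68 (16.2 CPM), Kdr (1.74 CPM) and Upk3b (3.03 CPM). It was not the highest for Krt8 (0.487 CPM), Pecam1 (33.8 CPM) and Dcn. Which markers made up the sum in tube 10 was not examined, so the sum does not speak for each of these cell types. Summed granulosa and cumulus markers were 181 CPM in tube 10, against 84.4 to 153 CPM in the other Drp1_KO libraries and 97.1 to 171 CPM in Drp1_WT libraries. The targeted gene did not separate the labels: Dnm1l ranged from 144 to 274 CPM in Drp1_KO oocytes and from 116 to 322 CPM in Drp1_WT oocytes. The lowest Drp1_WT values, 116 to 156 CPM, belong to tubes 11 to 15 (mice 3 and 4), against 254 to 311 CPM in Drp1_WT tubes 1 to 10. Directions below therefore follow the labels as given, and values without these libraries are given beside the results below or with the alternatives.

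The genes lie on 4 chromosomes (GRCm38, GENCODE M21) and all are protein-coding. Immt (ENSMUSG00000052337, 71831331 to 71877388), Chchd3 (ENSMUSG00000053768, 32790976 to 33060260), Chchd6 (ENSMUSG00000030086, 89383146 to 89595652) and Phb2 (ENSMUSG00000004264, 124712336 to 124716950) are on chromosome 6. Apoo (ENSMUSG00000079508, 94367117 to 94417093) and Apool (ENSMUSG00000025525, 112311334 to 112372755) are on chromosome X, Phb (ENSMUSG00000038845, 95666957 to 95680773) is on chromosome 11 and Stoml2 (ENSMUSG00000028455, 43027690 to 43031710) is on chromosome 4. Exons of Immt, Phb2 and Stoml2 share 185, 141 and 502 bases with annotated genes of the opposite strand that are not in the table, and the libraries keep no strand, so reads there cannot be assigned to a strand. Phb2 also holds a small nucleolar RNA gene, Gm23547, within 155 exonic bases of its own strand.

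The upstream sequences of 2 related pairs are shown because the ratio within each pair left the range of the other libraries in 1 library, tube 10 of mouse b. That library was below every other for 42.2% of all genes tested, and no link between motifs and its levels was tested. Another pair whose ratio left its range there, Apoo and Apool, held neither of the motifs marked and is not printed. RefSeq windows (GRCm38.p6) matched all 8 genes, and the 250 bases before the annotated start were searched on both strands for 6 motifs. Capitals mark the ZNF143 and THAP11 motif (the longer runs) and CCGGAAG, the core of ETS family sites, each with its reverse complement. All lines read 5′ to 3′ on the gene's strand.
Chchd3 (chr6:33060261-33060510, minus strand): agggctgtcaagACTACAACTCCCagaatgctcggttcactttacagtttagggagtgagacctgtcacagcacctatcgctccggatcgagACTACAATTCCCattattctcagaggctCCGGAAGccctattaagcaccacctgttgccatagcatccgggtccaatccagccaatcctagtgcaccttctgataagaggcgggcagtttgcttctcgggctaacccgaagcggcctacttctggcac
Chchd6 (chr6:89595653-89595902, minus strand): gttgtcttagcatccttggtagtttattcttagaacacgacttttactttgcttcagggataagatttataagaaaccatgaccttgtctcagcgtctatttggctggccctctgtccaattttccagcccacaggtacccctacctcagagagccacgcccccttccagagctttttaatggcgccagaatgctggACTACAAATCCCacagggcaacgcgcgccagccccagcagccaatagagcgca
Phb (chr11:95666707-95666956, plus strand): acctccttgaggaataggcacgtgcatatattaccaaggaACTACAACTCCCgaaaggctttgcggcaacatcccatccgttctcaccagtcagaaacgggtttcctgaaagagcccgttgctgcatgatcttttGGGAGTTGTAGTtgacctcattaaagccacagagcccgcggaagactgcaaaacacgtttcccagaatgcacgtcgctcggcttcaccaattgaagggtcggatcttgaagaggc
Phb2 (chr6:124712039-124712288, plus strand): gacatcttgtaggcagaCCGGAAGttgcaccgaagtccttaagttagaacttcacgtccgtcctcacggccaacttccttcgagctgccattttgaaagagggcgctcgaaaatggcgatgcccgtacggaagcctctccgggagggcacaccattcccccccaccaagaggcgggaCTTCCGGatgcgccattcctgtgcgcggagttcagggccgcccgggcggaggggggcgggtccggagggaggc

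The ZNF143 and THAP11 motif was found in 3 of the 8 genes, at 2 places in Chchd3, at 2 in Phb and at 1 in Chchd6, while 0.883% of 32851 windows of this length hold it. In Chchd3 the matches start at -238 and -158, in Phb at -210 on the gene's strand and at -115 on the opposite strand, and in Chchd6 at -53, where -1 is the last base before the start. CCGGAAG was found in 4 of the 8 genes (Immt, Chchd3, Phb2 and Stoml2), against 6.91% of windows. The E-box CACGTG was found in Phb (6.02% of windows), the YY1 core AANATGGC in Phb2 (3.91%), CCAAT in 5 genes (33.8%) and the NRF1 motif in 0 (3.74%). The matches did not overlap each other (0 overlapping pairs), and a match is a description of the letters only.

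All 8 transcripts were present in every oocyte. Per kilobase of annotated exon, and averaged over the mice, Phb2 was the most abundant, at 68.9 ± 8.52 CPM per kb in Drp1_KO mice and 80.9 ± 15.1 CPM per kb in Drp1_WT mice (SD, n = 4 and 5). Chchd6 (38.4 ± 4.03 and 39.8 ± 2.98 CPM per kb) and Chchd3 (37.1 ± 2.51 and 34.1 ± 1.91 CPM per kb) came next, in Drp1_KO and Drp1_WT mice. They lay within each other's spread in Drp1_KO mice, while in Drp1_WT mice Chchd6 stood above Chchd3 by more than the SDs, though the mice of the 2 genes overlapped (35.8 to 43 and 32.6 to 37.3 CPM per kb). Phb was the least abundant, at 12 ± 1.59 CPM per kb in Drp1_KO mice and 14.7 ± 1.9 CPM per kb in Drp1_WT mice. The related proteins of the prohibitin ring were thus unequal in transcript level in every mouse, with Phb2 above Phb. Immt ranked 6 of 8 by the length of all annotated exons (11353 bases), at 18 ± 2.72 CPM per kb in Drp1_KO mice and 20.6 ± 3.17 CPM per kb in Drp1_WT mice. By the length of its principal transcript (2728 bases), a choice made after seeing the data, it ranked 3, while Phb2, Chchd6 and Phb kept their places.

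**Figure D1:**
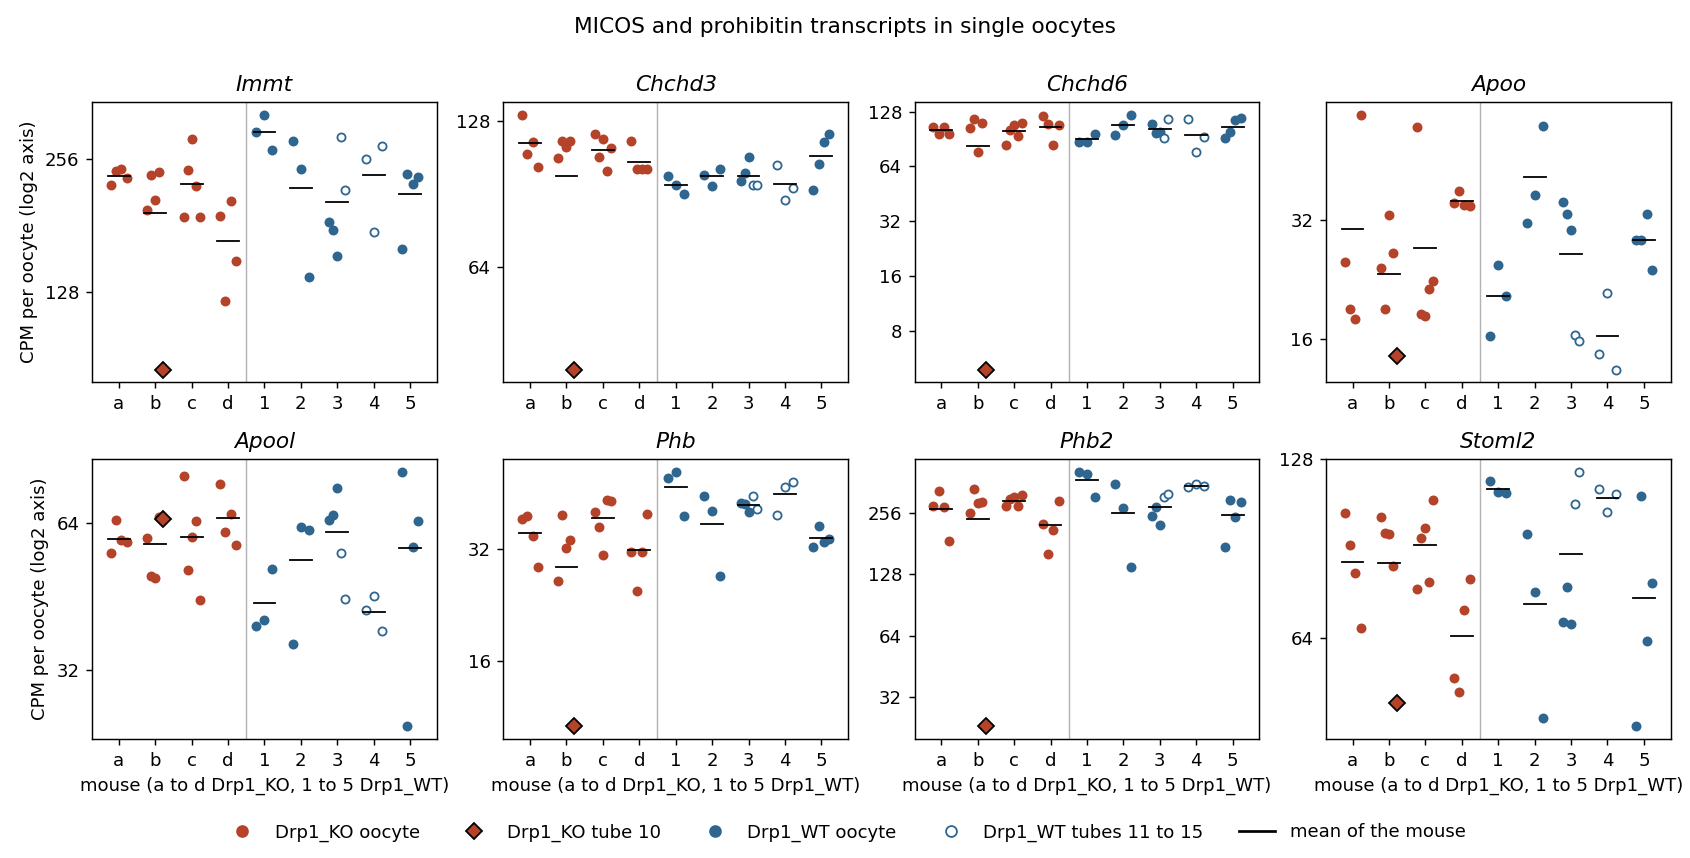
Level of each gene in 36 oocytes, in CPM of the oocyte's own total on a log2 axis, with Drp1_KO mice a to d at the left and Drp1_WT mice 1 to 5 at the right of each panel. Points are oocytes (open for Drp1_WT tubes 11 to 15) and bars are means of a mouse; tube 10 of mouse b (diamond) lies far below the rest for Chchd6 and Phb2, and inside the range for Apool.

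None of the 8 transcripts passed the test between the labels. Chchd3, the CHCH-domain subunit that binds Immt, was at 119, 106, 108 and 118 CPM in Drp1_KO mice a to d, against 91.8, 93.8, 95.1, 89.3 and 111 CPM in Drp1_WT mice 1 to 5 (scaled with TMM factors). The Drp1_KO mice lay above 4 of the 5 Drp1_WT mice, and mouse 5 overlapped them. The log2 fold change was 0.23 (SE 0.10, 95% interval 0.01 to 0.45), a 1.17-fold difference, with an unadjusted p of 0.0435 and an adjusted p of 0.508 by edgeR. Leaving out Drp1_WT tubes 11 to 15 gave 0.16 (adjusted p = 0.898), and leaving out tube 10 gave 0.24 (adjusted p = 0.559).

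Apool, the cardiolipin-binding arm of MICOS, was at 60.5, 60.5, 55.9 and 73.7 CPM in Drp1_KO mice, against 42.6, 51.3, 58.8, 39.7 and 59.8 CPM in Drp1_WT mice. The labels overlapped, with Drp1_WT mice 3 and 5 inside the range of the Drp1_KO mice. The log2 fold change was 0.31 (SE 0.14, 95% interval -0.00 to 0.62), with an unadjusted p of 0.0501 and an adjusted p of 0.514 by edgeR. Without Drp1_WT tubes 11 to 15 it was 0.14 (adjusted p = 0.920).

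Phb had the lowest p among the genes with a negative estimate. It was at 36.8, 30.5, 37 and 35.5 CPM in Drp1_KO mice, against 45.9, 36.8, 40.8, 42.8 and 35.2 CPM in Drp1_WT mice. The labels overlapped, mice 2 and 5 lying among the Drp1_KO mice. The log2 fold change was -0.20 (SE 0.12, 95% interval -0.46 to 0.05), with an adjusted p of 0.559 by edgeR. Phb2 was at 270 ± 18.9 CPM in Drp1_KO mice and 294 ± 49 CPM in Drp1_WT mice (log2 -0.12, 95% interval -0.39 to 0.15), and its log2 fold change was -0.0785 without Drp1_WT tubes 11 to 15. Stoml2 was at 86.1 ± 9.3 CPM in Drp1_KO mice and 89.8 ± 17 CPM in Drp1_WT mice (log2 -0.06, 95% interval -0.37 to 0.25).

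Immt, the scaffold, was at 214 ± 22.1 CPM in Drp1_KO mice and 229 ± 34.3 CPM in Drp1_WT mice (log2 -0.10, 95% interval -0.36 to 0.17). Without Drp1_WT mouse 1 the log2 fold change of Immt was -0.00154 and that of Phb2 -0.0380. Chchd6 was at 103 ± 11.5 CPM in Drp1_KO mice and 97.6 ± 8.86 CPM in Drp1_WT mice (log2 0.07, 95% interval -0.17 to 0.31), and its log2 fold change was 0.00767 without Drp1_WT tubes 11 to 15. Apoo was at 28.6 ± 7.75 CPM in Drp1_KO mice and 25.7 ± 8.73 CPM in Drp1_WT mice (log2 0.15, 95% interval -0.36 to 0.66), the widest interval of the 8. For the 5 genes other than Chchd3, Apool and Phb, edgeR's adjusted p lay between 0.728 and 0.889. A p that misses the threshold leaves changes within these intervals possible.

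**Figure D2:**
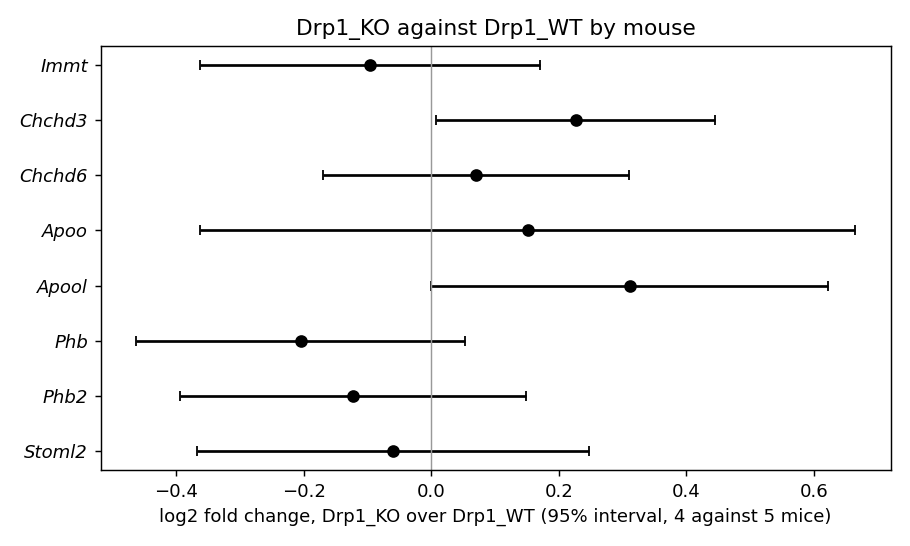
Log2 fold change of each gene, Drp1_KO over Drp1_WT, with its 95% interval from edgeR (4 against 5 mice). The point estimates run from -0.20 for Phb to 0.31 for Apool, and the interval of Chchd3 alone lies above 0 before adjustment.

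Read against the whole table, these counts were near the background. Over 12812 genes tested, edgeR called 2 genes (0.0156%) at an adjusted p under 0.05, and 0 of the 8 genes here. At an unadjusted p under 0.05 it picked 9.69% of all genes, 4.89% higher and 4.81% lower in Drp1_KO mice, and 1 of the 8 higher (Chchd3) and 0 lower. DESeq2 and limma-voom on oocytes also called 0 of the 8. The mice of the labels did not overlap for 2.56% of all genes, with Drp1_KO mice above for 1.27% and below for 1.29%, and for 0 of the 8. The median log2 fold change was 0.01 over the 8 and -0.00 over all genes tested, with 4 of the 8 positive.

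Other genes of the same membrane were taken from lists of known partners. Both remaining MICOS subunits were tested: Minos1 was at 137 ± 32.3 CPM in Drp1_KO mice and 119 ± 29.2 CPM in Drp1_WT mice, and 2410015M20Rik, also known as Qil1, was at 33.1 ± 7.65 and 33.2 ± 6.35 CPM. Neither had an edgeR adjusted p under 0.704. Of 11 partners at the outer membrane and in the intermembrane space, 0 passed and 0 had an unadjusted p under 0.05 (median log2 -0.01). Samm50, the barrel-forming protein that bridges MICOS to the outer membrane, was at 16.4 ± 2.1 CPM in Drp1_KO mice and 19.4 ± 3.18 CPM in Drp1_WT mice, and its partner Dnajc11 was at 382 ± 33.4 and 434 ± 61.9 CPM.

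Among 15 inner membrane proteases and prohibitin partners, 0 passed after adjustment, with a median log2 of -0.01. At an unadjusted p under 0.05 by edgeR, 0 were positive and 2 negative, against 4.89% and 4.81% of all genes tested. The 2 were Afg3l2, a subunit of the protease that prohibitins hold, at 44.7 ± 6.52 CPM in Drp1_KO mice and 58.8 ± 15.7 CPM in Drp1_WT mice (adjusted p = 0.508), and Stoml1, at 1.22 ± 0.434 and 2.08 ± 0.586 CPM (adjusted p = 0.504). Of 16 genes of cardiolipin synthesis and transfer, 0 passed after adjustment (median log2 -0.00). At an unadjusted p under 0.05 by edgeR, 2 were positive and 1 negative, beside the same shares of all genes. Neither list was tested as a set.

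Prelid1, which carries phosphatidic acid across the intermembrane space for cardiolipin synthesis, was at 29.5, 38.5, 26.5 and 26.4 CPM in Drp1_KO mice, against 9.36, 16.2, 16.4, 7.18 and 24.1 CPM in Drp1_WT mice. The labels did not overlap, as for 1.27% of all genes tested with Drp1_KO mice above. The log2 fold change was 1.04 (SE 0.28, unadjusted p = 0.00257), but edgeR's adjusted p was 0.471. Prelid2, a relative of Prelid1, was at 2.78 ± 1.4 CPM in Drp1_KO mice and 6.6 ± 4.91 CPM in Drp1_WT mice (adjusted p = 0.499 by edgeR). Of the 7 tested ATP synthase genes that act where the enzyme forms dimers or regulate it, 6 had a positive estimate (median log2 0.15) and 0 passed. Over all genes tested, 6332 of 12812 had a positive estimate, and the list was not tested as a set. Atpif1, the inhibitor of the enzyme, was at 108 ± 19.6 CPM in Drp1_KO mice and 86.5 ± 18.5 CPM in Drp1_WT mice (adjusted p = 0.527 by edgeR), and Atp5l was at 8.43 ± 2.43 and 7.04 ± 1.62 CPM.

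The balance within related pairs did not differ between the labels past the threshold in 3 comparisons. The log2 ratio of Chchd6 over Chchd3 was -0.26 ± 0.30 in Drp1_KO mice and 0.01 ± 0.08 in Drp1_WT mice (SD, n = 4 and 5), a difference of -0.28 (exact two-sided permutation p = 0.0635, adjusted p = 0.190 over the 3 pairs). By mouse it was -0.18, -0.69, -0.17 and -0.01 in Drp1_KO mice, against -0.06, 0.13, 0.06, -0.02 and -0.04 in Drp1_WT mice. Mouse b, which holds tube 10 (-2.78), was lowest, mice a and c lay under every Drp1_WT mouse, and mouse d lay among them. Without tube 10 the difference was -0.15 (exact permutation p = 0.0635, adjusted 0.190). Within tubes 1 to 15, with tube 10 included, it was -0.38. There the 3 Drp1_KO mice lay under all 4 Drp1_WT mice, and the exact permutation p of 0.0571 (adjusted 0.171) is the smallest that 3 against 4 mice can give, so this comparison could not pass the threshold. Tubes 27 to 30 hold 1 mouse of each label, d and 5. The smallest p that 4 against 5 mice allow is 0.0159.

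The log2 ratio of Apool over Apoo was 1.13 ± 0.20 in Drp1_KO mice and 0.98 ± 0.39 in Drp1_WT mice (exact permutation p = 0.571, adjusted 0.857), a difference of 0.15 that was 0.29 without Drp1_WT tubes 11 to 15 (adjusted 0.257). Phb2 stood over Phb by 2.81 ± 0.09 in Drp1_KO mice and 2.81 ± 0.14 in Drp1_WT mice on the log2 scale (difference 0.00, exact permutation p = 0.984, adjusted 0.984). Without tube 10 this difference was 0.11 (exact permutation p = 0.317, adjusted 0.476). With tube 10 counted in mouse b, the prohibitin ratio lay between 2.66 and 2.96 in all 9 mice. Tube 10 itself was at 1.04 and pulls the mean of mouse b (2.70) down.

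The SD of log2 CPM within mice was larger than that between means of mice for all 8 genes and for 82.5% of the 7323 genes with at least 10 CPM, without tube 10. Means over several oocytes vary less than single oocytes, so this share is given as a description. Chchd3 was the steadiest of the 8 with or without tube 10. Apart from tube 10 it lay between 101 and 132 CPM in Drp1_KO oocytes, with a median of 112 CPM, and between 87.8 and 120 CPM in Drp1_WT oocytes, with a median of 97.5 CPM. The labels overlapped. Oocytes share mice, so these ranges are no test between the labels, and by mouse the adjusted p of Chchd3 was 0.508 by edgeR. Its SD within mice was 0.11 on the log2 scale without tube 10, where counting error alone gives 0.06, and 0.423% of those genes had a smaller one. With tube 10 it was 0.28 (20.9% of genes smaller). Chchd6 had an SD within mice of 0.19 without tube 10 (14.3% of genes smaller) and 0.73 with it (87.9%). Phb had 0.21 without tube 10 (21.1% of genes smaller) and 0.33 with it (34.8%), and Phb2 had 0.31 and 0.69.

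Apoo was the most variable of the 8 without tube 10; with it, Chchd6 and Phb2 were above its 0.48 within mice. Without tube 10 it ran from 17.9 to 59.1 CPM in Drp1_KO oocytes, with a median of 25.1 CPM, and from 13.4 to 55.3 CPM in Drp1_WT oocytes, with a median of 26.5 CPM. High values occurred under both labels. Its SD within mice was 0.47 and between mice 0.40 on the log2 scale without tube 10 (counting error 0.12), and 90.8% and 92.9% of genes were less variable by these measures. Immt (0.29), Phb2 (0.31), Stoml2 (0.32) and Apool (0.35) had an SD within mice above the median of these genes, 0.28, without tube 10.

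**Figure D3:**
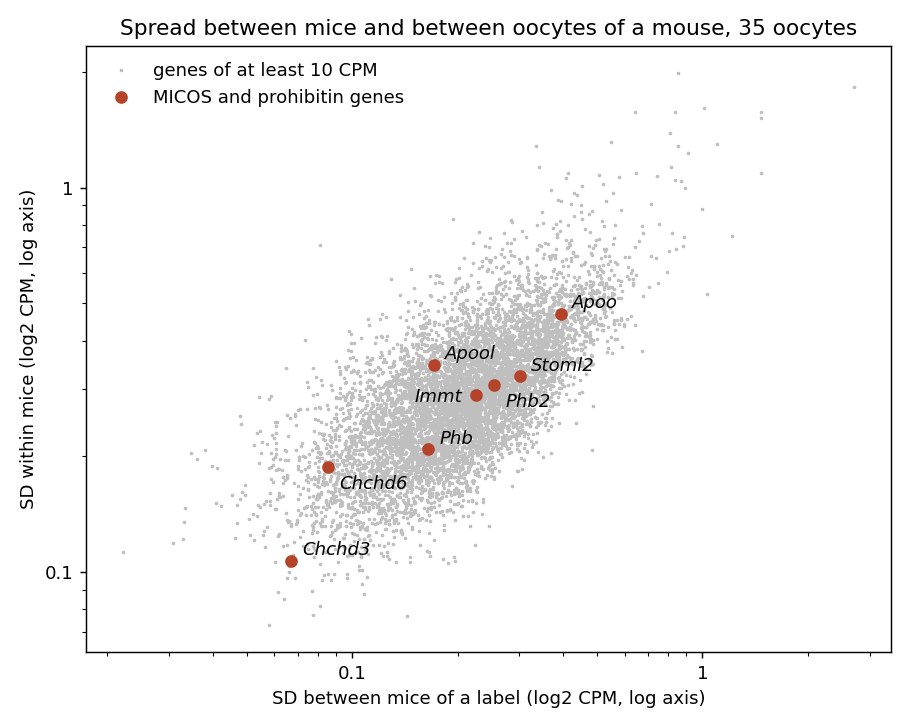
SD between mice of a label (x) and SD within mice (y) of log2 CPM, both on log axes, over 35 oocytes without tube 10; grey points are 7323 genes of at least 10 CPM and red points the 8 genes. Chchd3 lies at the low end of both axes (0.07 and 0.11) and Apoo at the high end (0.40 and 0.47).

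The 8 transcripts did not vary as a single unit from oocyte to oocyte. Over the 35 oocytes without tube 10, Immt, Phb2 and Stoml2 went together, Phb followed Phb2 and Stoml2 more than Immt, and Apoo and Apool went the other way. Phb2 and Stoml2 had the highest correlation (Spearman's rho 0.87, Pearson's r 0.88), with Phb and Phb2 at 0.66 (r 0.77) Immt and Phb2 at 0.64 (r 0.71) and Immt and Phb at 0.31 (r 0.46). Apoo and Apool were correlated with each other (rho 0.51, r 0.41) and inversely with Stoml2 (rho -0.77 and -0.78, r -0.70 and -0.69). The scaffold Immt and its partner Chchd3 had a rho of -0.06 (r -0.01), and Chchd3 and Chchd6 had 0.42 (r 0.35). These are descriptions over oocytes that share mice and over genes that share a library. The median rho over 7323 genes of at least 10 CPM was 0.17 with Immt, 0.21 with Phb2 and 0.25 with Stoml2. It was 0.12 with Phb and -0.20 with Apoo and Apool. Many genes outside the 8 were more like Immt than Phb2 or Stoml2 were, and more like Apoo than Apool was. Those links are thus not particular to these genes. Phb2 and Stoml2 ranked nearer the top for each other, though not first. With tube 10 included, Pearson's r of Chchd3 and Chchd6 was 0.88, so that value rests on a single library.

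For Phb2 with Stoml2 and for Apoo with Stoml2 the sign was the same under each label. Phb2 and Stoml2 had a rho of 0.68 in 17 Drp1_KO oocytes without tube 10 and 0.85 in 18 Drp1_WT oocytes, and Apoo and Stoml2 had -0.63 and -0.81. Chchd3 and Chchd6 had 0.26 in Drp1_KO oocytes and 0.63 in Drp1_WT oocytes, and Immt and Phb had -0.05 and 0.58. These differences between labels were not tested.

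**Figure D4:**
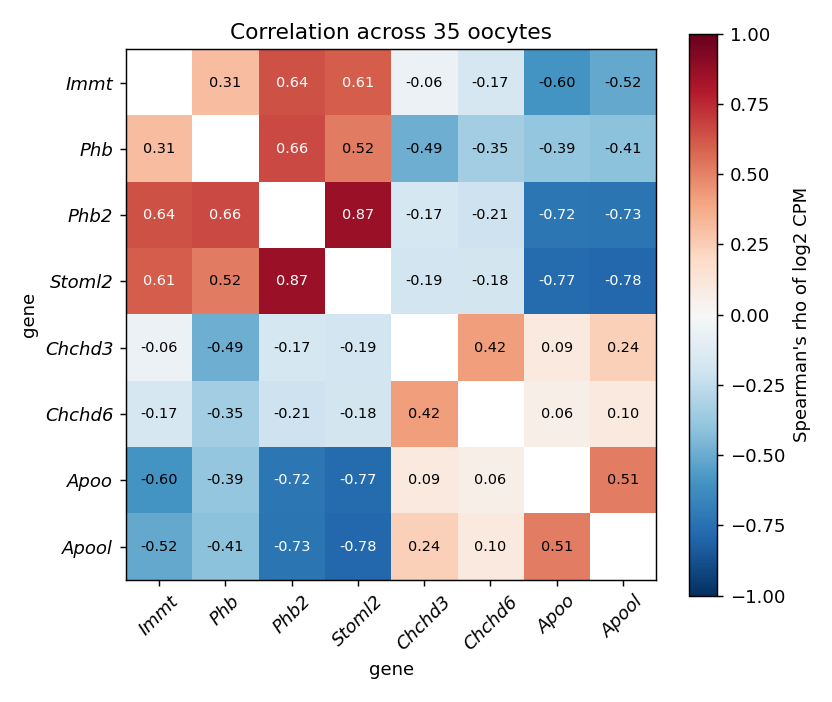
Spearman's rho between the 8 genes over 35 oocytes without tube 10, from -1 (blue) to 1 (red), with the value in each cell. Immt, Phb, Phb2 and Stoml2 form a positive block, and Apoo and Apool are negative against all 4.

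A measure of the whole library moved with this pattern. The mean level of 188 genes with under 1000 exonic bases, less that of 3247 genes with over 5000, had a rho of -0.88 with Stoml2, -0.80 with Phb2, -0.73 with Immt and -0.50 with Phb, and of 0.77 with Apoo and 0.71 with Apool, over the 35 oocytes. Chchd3 (0.26) and Chchd6 (0.34) followed it less. Its median was 0.45 in Drp1_KO tubes 27 to 30 and 0.30 in Drp1_WT tubes 27 to 30, against -0.48 in Drp1_WT tubes 11 to 15, on a log2 scale. The number of genes detected had a rho of 0.58 with Immt and 0.53 with Stoml2, and of -0.47 with Apoo and -0.51 with Apool. The share of the mitochondrial genome had -0.72 with Immt and 0.74 with Apoo. The part of these measures in the correlations was not tested. Dnm1l itself had a rho between -0.15 and 0.23 with each of the 8 genes.

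Outside the 8 genes, the transcript most like Immt over all 36 oocytes was Sdha, a subunit of respiratory complex II (rho 0.91). Apoo was most like Atp5k, the ATP synthase subunit e (rho 0.97), and Chchd3 was most like Mrps15, a mitochondrial ribosomal protein (rho 0.74). Without tube 10 the gene most like Chchd3 was Prelid1 (rho 0.72), and the named gene of the other 7 was the same. Phb2 was most like Ddx28 (rho 0.93), an RNA helicase of mitochondria, Stoml2 like Tk2 (rho 0.93), the mitochondrial thymidine kinase, and Phb like Acd (rho 0.84), a protein of telomeres. Chchd6 was most like Dynll1, a dynein light chain (rho 0.77), and Apool like Zfp534 (rho 0.81). The likeness was ranked over 7323 genes of at least 10 CPM. Second places over all 36 oocytes were close. They were Uba2 for Immt (rho 0.90), Hist1h2bc for Chchd3 (0.73), Chadl for Chchd6 (0.74) and Atp5mpl for Apoo (0.95). For Apool, Phb, Phb2 and Stoml2 they were Nlrp9c (0.77), Eif2b4 (0.83), Ranbp3 (0.93) and Snrnp40 (0.92).

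Drp1_WT tubes 11 to 15, the Drp1_WT libraries with the lowest Dnm1l, are set beside Drp1_WT tubes 1 to 10 by their values. Stoml2 lay between 104 and 122 CPM in tubes 11 to 15, against 46.8 to 117 CPM in Drp1_WT tubes 1 to 10, with medians of 112 and 77.8 CPM. Apoo lay between 13.4 and 20.9 CPM in tubes 11 to 15, against 16.3 to 55.3 CPM in tubes 1 to 10. The ranges overlapped for both genes. Phb2 (medians of 343 and 274 CPM) and Apool (44.7 and 62.1 CPM) also differed in median, with ranges that overlapped. The medians lay closer for Immt (256 and 242 CPM), Phb (44.5 and 42.5 CPM), Chchd3 (94.6 and 98.6 CPM) and Chchd6 (92.8 and 97.6 CPM). Tubes 27 to 30 of Drp1_KO mouse d held 51.9 to 80.3 CPM of Stoml2 and 34.8 to 38 CPM of Apoo, against 49.7 to 109 CPM and 14.5 to 59.1 CPM in Drp1_KO tubes 1 to 15. Both lower ends in tubes 1 to 15 were tube 10, and the next lowest values were 66.4 and 17.9 CPM. Drp1_WT tubes 27 to 30 held 45.4 to 111 CPM of Stoml2 and 23.9 to 33.2 CPM of Apoo. These sets of tubes were compared by their values only.

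Tube 10 of mouse b held little Chchd6 and Phb2. Chchd6 was at 4.9 CPM (24 counts), against 76.6 to 122 CPM in the other 17 Drp1_KO oocytes, 17.9-fold under their median. Phb2 was at 22.9 CPM (112 counts), against 161 to 338 CPM, 11.7-fold under their median. Phb was at 10.6 CPM (3.07-fold under), Chchd3 at 39.4 CPM (2.81-fold under) and Immt at 85.6 CPM (2.58-fold under). For these 5 genes tube 10 was the lowest of the 36 libraries.

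Stoml2 (49.7 CPM), Apoo (14.5 CPM) and Apool (65.2 CPM) in tube 10 lay within the range of other libraries. Ratios within the 3 related pairs lay outside the range of the other 35 libraries in this oocyte. How many other pairs of genes do so was not computed. The log2 ratio of Chchd6 over Chchd3 was -2.78 in tube 10, against -0.56 to 0.30 in the other 35 libraries, and that of Phb2 over Phb was 1.04, against 2.33 to 3.27. Apool over Apoo was 2.09 in tube 10, against -0.21 to 1.72. Over all genes tested, tube 10 was below every other library for 42.2% and above every other for 14.4%, against 5 and 0 of the 8 genes here. Of genes with a median of at least 10 CPM, 31.5% were more than 4-fold under the other Drp1_KO oocytes and 48.7% more than 2-fold under, against 2 and 5 of the 8. With 1 such library no test was possible.

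**Figure D5:**
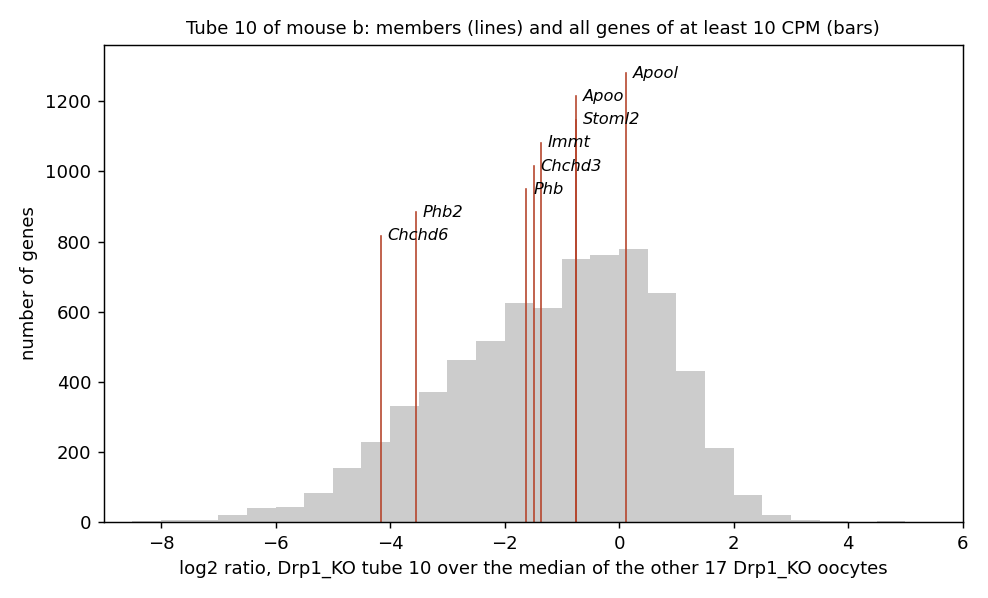
Log2 ratio of tube 10 over the median of the other 17 Drp1_KO oocytes (x) and number of genes (y); bars are all genes with a median of at least 10 CPM and red lines the 8 genes, whose heights carry no value. Chchd6 (-4.16) and Phb2 (-3.54) lie in the low tail, and Apool (0.12) near the median of the others.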

How the data were processed

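The authors deposited raw counts per Ensembl gene, 1 column per oocyte. Per the labels' protocols, each lysed oocyte was amplified with a SMARTer Ultra Low Input kit, made into a Nextera XT library and sequenced from a single end. Tools listed, per the submitters' processing notes, are Picard, STAR and featureCounts (Subread 1.5.2), with build GRCm38. Their settings, including how reads with several matches or PCR copies were treated, were not given in the sources used here. Of 21968 IDs, 21876 matched GENCODE M21. No pair of oocytes of a label looked like 1 library deposited again (their counts gave a chi-square of 5.42 or more per degree of freedom).

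Counts were summed per mouse and tested with edgeR 4.0.16 (R 4.3.3; TMM, filter on low counts, robust quasi-likelihood fit, Benjamini-Hochberg over 12812 genes, threshold 0.05). Oocyte levels are CPM of each oocyte's own total; mouse levels carry TMM factors except per kilobase. Pair ratios, log2 of CPM + 1, were averaged per mouse and compared by exact permutation (scipy 1.17.1), adjusted over 3 pairs. Alternatives used DESeq2 1.42.0 and limma 3.58.1. The scripts were tested on simulated data. Markers and partner lists, with 16 of 17 cardiolipin genes matched, were fixed together with the naming rule: the 8 genes, Dnm1l, the 2 lowest p per list and the most alike gene. All were chosen with earlier results of these data known. Spread was set beside all genes of at least 10 CPM rather than genes of like level. Nothing says whether mice were matched. The p-values of edgeR set a difference between labels against the variation between mice. Those of the permutation test set it against the other splits of these mice.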

Additional observations from a re-analysis of the deposited data

Results flagged for a closer look

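In 70 groups of 4 or 5 mice or oocytes, the highest or lowest value was compared with its nearest neighbour (Dixon's gap test, 95% level). Chance gives about 1 such value in 20 independent groups, and 10 were found. These groups share mice and libraries, so the count is not a test of an excess. By mouse, Immt was high in Drp1_WT mouse 1 (288 CPM, against 198 to 221 CPM in the others), Chchd3 was high in Drp1_WT mouse 5 (111 CPM, against 89.3 to 95.1 CPM) and Stoml2 was low in Drp1_KO mouse d (72.1 CPM, against 90.3 to 91.3 CPM). Within Drp1_KO mouse b, tube 10 was low for Immt (85.6 CPM), Chchd3 (39.4 CPM) and Phb2 (22.9 CPM). Tube 27 was low for Immt in Drp1_WT mouse 5 (160 CPM) and high for Chchd3 in Drp1_KO mouse d (116 CPM). Apoo was high in tube 11 of Drp1_KO mouse c (55.1 CPM) and in tube 28 of Drp1_KO mouse d (38 CPM, where the other 3 oocytes lay between 34.8 and 35.3 CPM).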

How the results depend on the processing

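Of 184 log2 fold changes of the 8 genes under 23 alternatives, 172 kept their direction, 12 turned and 0 reached the threshold (lowest adjusted p 0.261, edgeR without mouse 5). The count of all genes past the threshold, 2 with edgeR by mouse, was 38 with DESeq2, 9 with limma-voom on oocytes, 4 without tubes 27 to 30, and 1 to 3 with a mouse left out. Chchd6 turned to -0.0188 with library totals alone, -0.10 with limma-voom and -0.0879 with limma-trend, and ran from -0.00436 to 0.12 with a mouse left out. Apoo turned to -0.00125 without tubes 27 to 30, to -0.11 without Drp1_WT tubes 11 to 15 and to -0.0890 when tube 10 and Drp1_WT tube 29 were left out too, with -0.0549 to 0.34 over mice left out. Stoml2 turned to 0.04 in both settings without Drp1_WT tubes 11 to 15 (0.0409 and 0.0392), with -0.13 to 0.0256 over mice left out. The Phb2 over Phb difference turned to -0.0229 with a pseudocount of 5, was 0.11 without tube 10 and 0.0851 with counts summed per mouse, and ran from -0.0349 to 0.0386 over mice left out, and Apool over Apoo from -0.000843 to 0.24. Chchd6 over Chchd3 was -0.16 when counts were summed per mouse. By principal transcript, Immt ranked 3, Chchd3 4, Stoml2 5, Apool 6 and Apoo 7 in Drp1_WT mice. The cause of these turns was not tested. No paired analysis was possible because Drp1_KO mice carry letters and Drp1_WT mice numbers, which name no pairs. The number of mice, 4 against 5, sets the width of the intervals; Apoo and Phb in tube 10 rest on 71 and 52 counts.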
